A study of Homo sapiens with 6 samples.

Results

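Secreted inflammatory cytokines and chemokines, together with the NF-kB inhibitor gene NFKBIA as a readout of the pathway, were followed in DIvA cells that lack p53 or carry it. The members are the rows of the deposited count table whose gene symbol is IL6, LIF, IL11, IL1A, IL1B, CXCL1, CXCL2, CXCL3, CCL2 or NFKBIA, that is 10 genes of the 55882 rows in the table. All 10 were found, and 7 of them had enough counts to be tested. They are named by symbol, and were chosen with earlier results of these data known.

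DIvA cells descend from U2OS, a human osteosarcoma line, and carry the restriction enzyme AsiSI in a form that 4-hydroxytamoxifen (4-OHT) sends into the nucleus, where it cuts DNA at its sites. Polyadenylated RNA was sequenced from 3 libraries of p53 KO cells (a p53 knockout made in DIvA) and 3 libraries of p53 WT cells (DIvA with wild-type p53). Every library, of both genotypes, came from cells given 300 nM 4-OHT for 5 h, so that the values compare genotypes after 4-OHT and not cells before and after it. The labels do not say how many knockout clones were used or whether replicates were separate cultures, so the p-values measure the spread between these samples, which may be technical. In bulk RNA, fewer cells that make a transcript and less of it per cell cannot be told apart.

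NF-kB is a family of dimeric transcription factors held in the cytoplasm by inhibitors of the IkB type, of which NFKBIA (IkB-alpha) is the best known. When the IKK kinase complex marks the inhibitor for degradation, the dimers enter the nucleus and bind kB sites in promoters of cytokine, chemokine and inhibitor genes, NFKBIA included, which closes a negative feedback loop. DNA breaks can activate this pathway through the kinase ATM. IL6, LIF and IL11 belong to the cytokines that signal through the shared receptor chain IL6ST and STAT3. IL1A and IL1B bind the interleukin-1 receptor, CXCL1, CXCL2 and CXCL3 attract neutrophils through the receptor CXCR2, and CCL2 attracts monocytes through CCR2.

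The promoters below show the sites by which these genes are usually linked to NF-kB or AP-1, and they are printed because the genes that share a site had very different read counts. They are stretches of 70 bases upstream of the gene start in RefSeq on GRCh38.p14, a newer build than the authors' GRCh37. Each is written 5′ to 3′ along the gene's strand. Capitals mark matches to the kB motif (GGGA, any 2 bases, then TTCC) on either strand in the first 5 sequences and to the AP-1 motif TGANTCA in the last. The stretches span bases 110 to 41 before the start, and for IL11 bases 130 to 61.

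IL6 (chr7:22727090-22727159, plus strand): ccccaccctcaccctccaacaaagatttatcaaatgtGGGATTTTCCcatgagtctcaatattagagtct
CXCL1 (chr4:73869283-73869352, plus strand): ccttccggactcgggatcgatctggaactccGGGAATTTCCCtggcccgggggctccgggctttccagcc
CXCL2 (chr4:74099236-74099305, minus strand): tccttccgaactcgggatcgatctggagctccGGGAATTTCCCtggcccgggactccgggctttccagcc
CXCL3 (chr4:74038730-74038799, minus strand): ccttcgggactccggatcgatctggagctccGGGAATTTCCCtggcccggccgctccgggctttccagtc
NFKBIA (chr14:35404790-35404859, minus strand): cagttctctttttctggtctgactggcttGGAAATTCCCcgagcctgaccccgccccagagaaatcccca
IL11 (chr19:55370524-55370593, minus strand): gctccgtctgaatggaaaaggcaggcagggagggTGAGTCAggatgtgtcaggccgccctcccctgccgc

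In the 3 CXCL promoters a match on the gene's strand and a match on the other strand overlap, shifted by 1 base, so that the capitals run over the same letters in all of them. The window searched was 250 bases before to 50 bases after the start, on both strands. RefSeq windows were matched for 8 of the 10 members, with 2 start sites for IL1A, and not for LIF and CCL2. The kB motif was found in the windows of IL6, CXCL1, CXCL2, CXCL3 and NFKBIA, and in 1.61% of all 35116 windows of that length. Its matches began 73 bases before the start in IL6, 79 bases before it in CXCL1 and CXCL3, 78 bases before it in CXCL2 and 81 bases before it in NFKBIA. The AP-1 motif was found in the windows of IL11 and IL1A, and in 7.71% of all windows. The motif TATAAA was found for NFKBIA and for 1 start of IL1A, and in 11.5% of all windows. In NFKBIA it was on the strand opposite to the gene, 33 to 28 bases before the start. In IL1A it was on the gene's strand, 239 to 234 bases before that start. No match to the 3 motifs was found in the window of IL1B. A match describes the letters and is not a measured binding site.

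**Figure D1:**
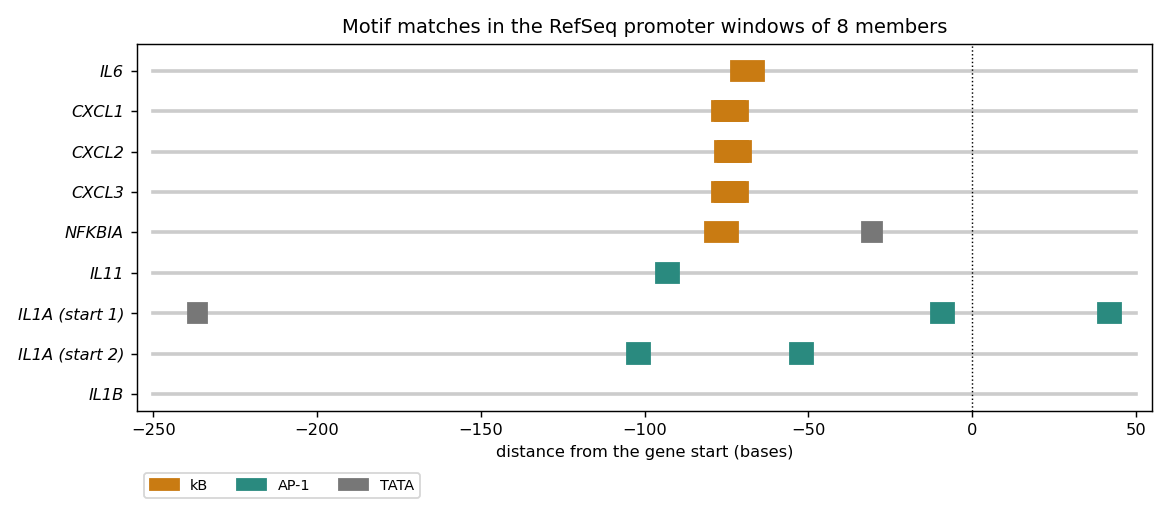
Matches to 3 motifs in the promoter windows of 8 members, with the distance from the gene start in bases on the horizontal axis (negative is upstream) and 1 line per start site. The kB matches of IL6, CXCL1, CXCL2, CXCL3 and NFKBIA lie between 64 and 81 bases upstream, while IL11 has an AP-1 match that begins 96 bases upstream.

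The depth and the genotype were checked first. Total counts were between 20393909 and 72621732 in p53 KO libraries and between 24347609 and 79767519 in p53 WT libraries. CDKN1A, a cyclin-dependent kinase inhibitor that p53 induces, averaged 45.8 ± 3.68 CPM in p53 KO and 542 ± 27.0 CPM in p53 WT (SD, n = 3 each; CPM is the usual read count scaled by the TMM-adjusted library total). MDM2, the ubiquitin ligase that p53 induces, averaged 57.6 ± 13.3 CPM in p53 KO and 221 ± 29.6 CPM in p53 WT (SD, n = 3 each). Of the osteoblast lineage markers, COL1A1 and SPARC were abundant and RUNX2 had 7.26 ± 1.75 CPM in p53 KO and 11.7 ± 1.41 CPM in p53 WT (SD, n = 3 each), while SP7 and IBSP had 0 counts in every library. COL1A2 was low, with 0.494 ± 0.311 CPM in p53 KO and 0.315 ± 0.300 CPM in p53 WT (SD, n = 3 each). BGLAP had 1.63 ± 0.933 CPM in p53 KO and 1.58 ± 0.189 CPM in p53 WT (SD, n = 3 each). Of 8 such markers tested, COL1A1 was higher and RUNX2, ALPL, SPARC and SPP1 were lower, beside 12.1% and 14.4% of all genes tested. Log2 fold changes below are p53 KO over p53 WT with their standard error (SE), and a gene was called when its adjusted p by edgeR's quasi-likelihood test was under 0.05 over all 22352 genes tested.

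Of the 10 members, CCL2 and IL6 were higher in p53 KO, IL11 was lower, and LIF, NFKBIA, IL1A and CXCL3 did not pass the threshold. IL1B, CXCL1 and CXCL2 had too few counts to be tested. Thus 3 of the 7 members tested were called, where 26.5% of all genes tested were called, 12.1% higher and 14.4% lower. The groups did not overlap for 4 of the 7 (CCL2, IL6, IL11 and NFKBIA), where they did not overlap for 40.8% of all genes tested.

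**Figure D2:**
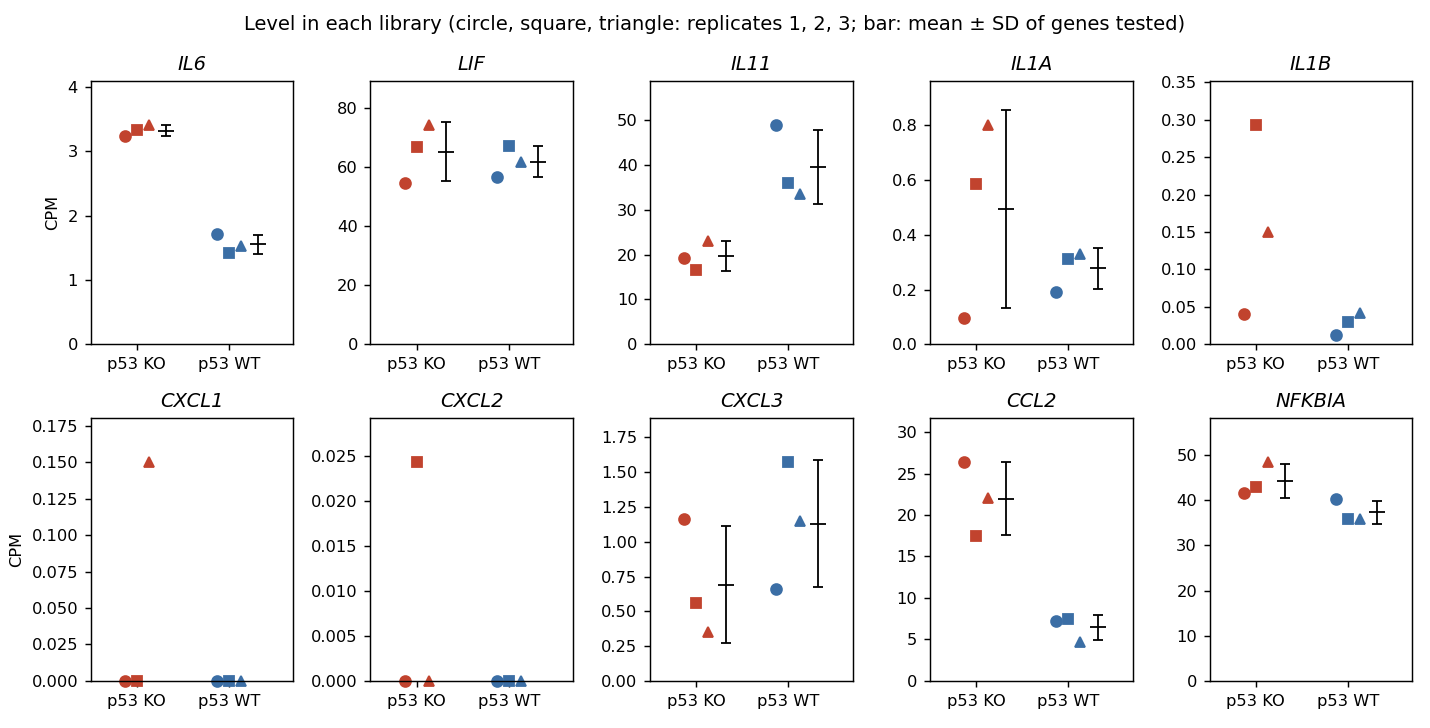
CPM of each member in each library, with p53 KO left of p53 WT, a marker per replicate and the mean ± SD beside the genes that were tested. Each panel has its own axis from 0. All p53 KO libraries lie above all p53 WT libraries for IL6 and CCL2 and below them for IL11, while CXCL1 and CXCL2 have reads in 1 library each.

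Among the ligands of the IL-6 family the members moved apart. IL6, a cytokine of the acute phase response, had 3.23, 3.32 and 3.41 CPM in p53 KO replicates 1, 2 and 3, against 1.72, 1.41 and 1.52 CPM in p53 WT replicates 1, 2 and 3. The lowest p53 KO library was above the highest p53 WT library, and the p53 KO values lay close together. The log2 fold change was 1.09 (SE 0.30, adjusted p = 0.0155 by edgeR), or 2.14-fold higher with a 95% interval of 1.36 to 3.36. These levels rest on 68 to 239 counts per p53 KO library and 37 to 135 counts per p53 WT library. Without p53 WT replicate 2 the value was 1.02 and the call was lost (adjusted p = 0.0714 by edgeR). IL6 overlaps STEAP1B, a gene on the other strand and how the authors' count used strand is not stated in the labels. STEAP1B itself averaged 0.301 ± 0.0464 CPM in p53 KO and 0.135 ± 0.159 CPM in p53 WT (SD, n = 3 each).

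IL11, a cytokine of the same family that acts on stromal cells and platelet precursors, went the other way. It had 19.2, 16.5 and 23.1 CPM in p53 KO replicates 1, 2 and 3, against 48.9, 35.9 and 33.6 CPM in p53 WT replicates 1, 2 and 3. Every p53 KO library was below every p53 WT library, and p53 WT replicate 1 was the highest. The log2 fold change was -1.02 (SE 0.17, adjusted p = 0.000419 by edgeR), so that p53 WT was 2.02-fold higher than p53 KO. Over the fits that left out 1 library it was between -1.13 and -0.84.

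LIF, which maintains stem cell and stromal states and is known as a p53 target in other settings, had the highest mean CPM of the secreted members, a scale that is not corrected for gene length. It had 54.5, 66.8 and 74.3 CPM in p53 KO replicates 1, 2 and 3, against 56.6, 67.1 and 61.7 CPM in p53 WT replicates 1, 2 and 3. The groups overlapped over most of their range. The log2 fold change was 0.07 (SE 0.13, adjusted p = 0.726 by edgeR), with a 95% interval of -0.20 to 0.35. LIF lies on chromosome 22, where the median log2 fold change of its 50 nearest tested genes was -0.44. Measured relative to those neighbours, LIF was higher by 0.52 on the log2 scale (adjusted p = 0.00978 by edgeR). That p-value takes the neighbours' median as known and leaves out its error and the spread among the neighbours. The same holds for every p-value relative to neighbours below. The genes whose profile over the 6 libraries was most like that of LIF, by root mean square difference of centred log2(CPM + 1), included PVRL1 (0.035) and THG1L (0.057).

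Ratios of counts within a library do not depend on how libraries are scaled. There were 0.168, 0.201 and 0.148 IL6 counts per IL11 count in p53 KO replicates 1, 2 and 3, against 0.0351, 0.0394 and 0.0453 in p53 WT replicates 1, 2 and 3. For IL11 the counts per LIF count were 0.353, 0.247 and 0.311 in p53 KO and 0.865, 0.534 and 0.544 in p53 WT. Neither ratio overlapped between the groups. With 3 libraries against 3 an exact permutation test of a ratio cannot go below p = 0.10, and none is given.

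The receptor list held receptors of the members and of related ligands such as oncostatin M and IL-33. Of its 11 genes tested 5 were higher and 2 were lower, beside 12.1% and 14.4% of all genes tested. IL6R, the IL-6 binding chain, was lower, with 10.5 ± 1.00 CPM in p53 KO and 21.7 ± 0.472 CPM in p53 WT (SD, n = 3 each). Its log2 fold change was -1.05 (SE 0.15, adjusted p = 0.000125 by edgeR). OSMR, the oncostatin M receptor, was lower by a log2 fold change of -0.44. The shared chain IL6ST, named after its values were seen, had 0.54 with adjusted p = 0.0468 by edgeR, and lost its call in 4 of the 6 fits without 1 library. LIFR and IL11RA, the receptor chains for LIF and IL11, named for their role, had -0.27 and -0.26 and did not pass (adjusted p = 0.277 and 0.459 by edgeR). The others that rose were DARC (ACKR1), a chemokine-binding receptor that does not signal, IL1RL1, the IL-33 receptor, and, named after their values were seen, IL1RAP and SIGIRR, an accessory chain and an inhibitor of interleukin-1 signalling. The calls of IL1RAP and SIGIRR were also lost in at least 1 fit without 1 library. CXCR2 and CCR2, the receptors for the CXCL members and for CCL2, had 0 counts in every library.

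Downstream of IL6ST, 4 of 12 genes of the STAT3 branch were higher and 1 was lower, beside 12.1% and 14.4% of all genes tested. STAT3, the transcription factor, averaged 195 ± 27.6 CPM in p53 KO and 127 ± 14.9 CPM in p53 WT (SD, n = 3 each), a log2 fold change of 0.62. SOCS2, a feedback inhibitor of cytokine receptors, had 2.55, and PIM1, a kinase that STAT3 induces, had 0.65. PIAS3, a STAT3 inhibitor named after its values were seen, had 0.34 and lost its call in 4 fits without 1 library and with the replicate number as a block (adjusted p = 0.0586 by edgeR). SOCS3, the feedback inhibitor of IL6ST signalling, was the one that fell, by -0.75, and its call was lost without p53 KO replicate 1 or 2 or p53 WT replicate 3 (adjusted p = 0.069, 0.052 and 0.101 by edgeR) and relative to neighbouring genes (-0.60, adjusted p = 0.0645 by edgeR).

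The interleukin-1 ligands were near the limit of what these depths can show. IL1A, an alarmin that is active without cleavage, had 7, 24 and 16 counts in p53 KO replicates 1, 2 and 3 and 15, 21 and 8 counts in p53 WT replicates 1, 2 and 3. That is 0.0946, 0.586 and 0.802 CPM in p53 KO, against 0.191, 0.312 and 0.329 CPM in p53 WT. The p53 KO libraries held both the lowest and the highest values, and the log2 fold change was 0.80 with a 95% interval of -1.26 to 2.86 (adjusted p = 0.608 by edgeR). IL1B, which needs cleavage by inflammatory caspases, had 3, 12 and 3 counts in p53 KO and 1, 2 and 1 counts in p53 WT. In CPM the lowest p53 KO library, at 0.0405, was below the highest p53 WT library, at 0.0411. Pooled over libraries, IL1B counts per scaled total were 5.68 times as high in p53 KO (1.87 to 23.1 as the 95% exact binomial interval), and IL1B was not tested. Such intervals, and the floors given for counts of 0, cover counting error only and leave out the spread between replicates. Whether PCR copies of a molecule were counted as separate reads is not given in the sources used here.

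Of 8 tested genes that process or release interleukin-1, GSDMD was higher and CAPN2 was lower, a share near the 26.5% of all genes tested. CAPN2, a calpain, a family of proteases that can cleave IL1A, had 358 ± 9.84 CPM in p53 KO and 604 ± 26.1 CPM in p53 WT (SD, n = 3 each), a log2 fold change of -0.75 (SE 0.09). GSDMD, the pore-forming gasdermin D, had 0.60 (SE 0.13). NLRC4 and NLRP1, inflammasome sensors, had 1.35 and -0.38 and did not pass (adjusted p = 0.0653 and 0.215 by edgeR). NLRC4 passed relative to neighbours (1.63, adjusted p = 0.0365 by edgeR) and by DESeq2 (1.37, adjusted p = 0.0384).

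The CXC chemokine members showed nearly no reads except for CXCL3. CXCL1 had 3 counts in p53 KO replicate 3 and 0 in the other 5 libraries, and CXCL2 had 1 count in p53 KO replicate 2 and 0 in the other 5. The floor set by a count of 0, taken as 3 counts, was 0.0413 to 0.147 CPM in p53 KO libraries and 0.0376 to 0.123 CPM in p53 WT libraries, and at these depths no difference was detectable. CXCL3 had 86, 23 and 7 counts in p53 KO replicates 1, 2 and 3 and 52, 106 and 28 counts in p53 WT replicates 1, 2 and 3. Its levels were 1.16, 0.562 and 0.351 CPM in p53 KO, against 0.661, 1.58 and 1.15 CPM in p53 WT. The groups overlapped, and the log2 fold change was -0.65 with a 95% interval of -1.88 to 0.57 (adjusted p = 0.462 by edgeR). As printed above, the promoters of CXCL1, CXCL2 and CXCL3 hold the same kB letters, and of these genes CXCL3 was the one with reads in all 6 libraries. The genes are close paralogs: 6.01% of the 50-base words in CXCL3 transcripts of GENCODE 29 also occur in CXCL1 or CXCL2, against 4.81% for CXCL1 and 12.5% for CXCL2, so reads from shared stretches cannot be assigned with certainty.

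These genes stand in a cluster on chromosome 4 that holds 9 protein-coding genes in RefSeq from IL8 (CXCL8) to CXCL2. Of these 4 had no counts in any library and 2, IL8 and CXCL3, were tested. IL8, the main human neutrophil chemokine, was lower. It had 2.86, 1.03 and 2.15 CPM in p53 KO replicates 1, 2 and 3, against 16.6, 11.7 and 10.5 CPM in p53 WT replicates 1, 2 and 3. The log2 fold change was -2.67 (SE 0.32, adjusted p = 3.36e-05 by edgeR), so that p53 WT was 6.35-fold higher than p53 KO, and the groups were far apart.

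CCL2, the monocyte chemokine, changed most among the members tested. It had 26.4, 17.5 and 22.0 CPM in p53 KO replicates 1, 2 and 3, against 7.22, 7.40 and 4.73 CPM in p53 WT replicates 1, 2 and 3. The lowest p53 KO library was above the highest p53 WT library by more than the range of the p53 WT libraries. The log2 fold change was 1.75 (SE 0.21, adjusted p = 2.78e-05 by edgeR), or 3.37-fold higher with a 95% interval of 2.48 to 4.59. There were 1.37, 1.06 and 0.952 CCL2 counts per IL11 count in p53 KO replicates 1, 2 and 3, against 0.148, 0.206 and 0.141 in p53 WT replicates 1, 2 and 3.

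CCL2 starts a cluster of 6 protein-coding CC chemokine genes on chromosome 17, and its neighbour CCL7, which attracts monocytes through some of the same receptors, went the other way. CCL7 had 14, 0 and 0 counts in p53 KO replicates 1, 2 and 3 and 107, 137 and 35 counts in p53 WT replicates 1, 2 and 3. Its log2 fold change was -4.21 with a 95% interval of -6.07 to -2.36 (adjusted p = 0.00228 by edgeR), or 18.6-fold higher in p53 WT. Pooled over libraries, p53 WT was 15.8 times as high as p53 KO per scaled total. The 95% exact binomial interval of that ratio, 9.26 to 29.3, leaves out the spread between replicates. All 14 p53 KO counts were in replicate 1, so leaving out that library had to give a larger fold and adds no support. With a floor of 3 counts over the group in place of its 0 counts, CCL7 was then 33.3-fold lower in p53 KO. Of the other 4 genes in the cluster none had enough counts to be tested, with at most 21 counts over all libraries.

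**Figure D3:**
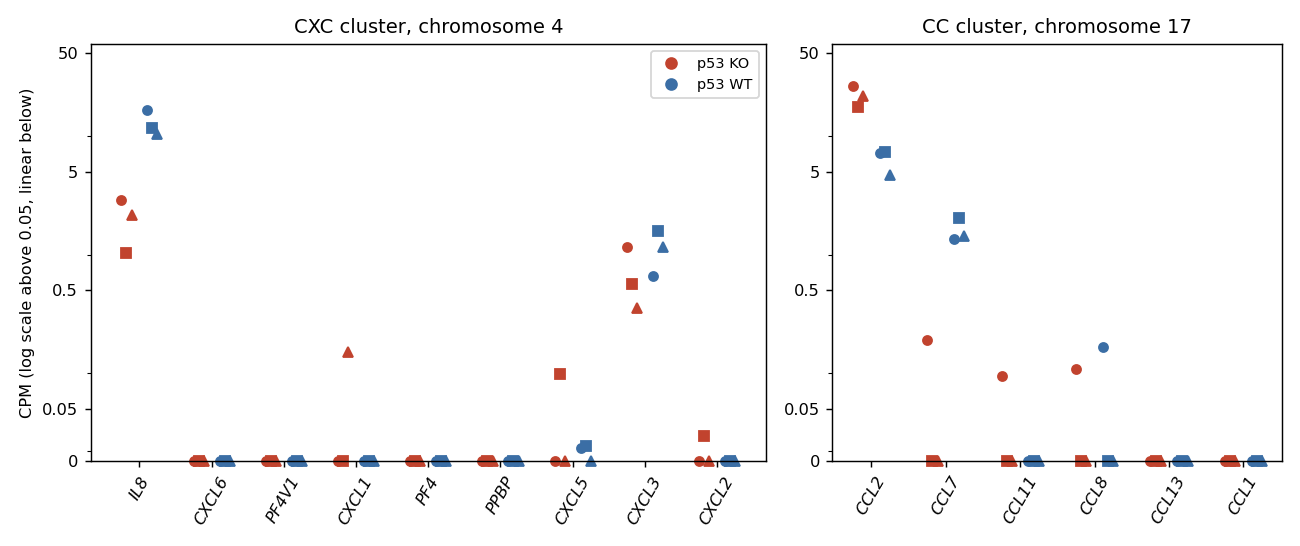
CPM per library, on a log scale above 0.05 and linear below, for the protein-coding genes of the CXC cluster on chromosome 4 and the CC cluster on chromosome 17 in their order along the chromosome, with p53 KO (red) left of p53 WT (blue) and a marker per replicate. CCL2 is higher in p53 KO while CCL7 and IL8 are lower, and 4 of the 9 genes of the CXC cluster lie at 0 in every library.

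In the list of other chemokines 2 of 12 tested were higher and 3 lower, beside 12.1% and 14.4% of all genes tested. Of the 24 listed 7 had 0 counts in every library. CX3CL1, a membrane-bound chemokine, averaged 1.56 ± 0.391 CPM in p53 KO and 0.150 ± 0.0154 CPM in p53 WT (SD, n = 3 each; log2 fold change 3.36, and 2.67 relative to neighbours). CXCL16, named after its values were seen, had 0.81 and lost its call in 4 fits without 1 library. CCL4, a macrophage inflammatory protein, had 0 counts in all p53 KO libraries and 64, 17 and 19 counts in p53 WT replicates 1, 2 and 3 (adjusted p = 0.00372 by edgeR). Against a floor of 3 counts over the group, p53 KO was 26.4-fold lower. That fold is no lower bound, because it leaves out the error of the p53 WT counts and the spread between replicates. With IL8 and CCL7, CCL4 made up the 3 that fell.

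In the list of other cytokines 4 of 15 tested were higher and 1 was lower, beside 12.1% and 14.4% of all genes tested. All 5 calls held in every fit without 1 library. IL32, a cytokine that induces TNF and IL6 in other cells, averaged 67.96 ± 16.4 CPM in p53 KO and 8.66 ± 0.559 CPM in p53 WT (SD, n = 3 each), and its log2 fold change was 2.97 (SE 0.17, adjusted p = 2.89e-08 by edgeR). IL18, an interleukin-1 relative that caspase-1 activates, averaged 453 ± 40.1 CPM in p53 KO and 160.5 ± 19.5 CPM in p53 WT (SD, n = 3 each), or 2.82-fold higher. IL18 lies among genes with a median log2 fold change of 0.63, and relative to them it had 0.86 (adjusted p = 6.13e-05 by edgeR). IL24, of the IL-10 family, had 1.81, and IL34, named after its values were seen, had 223 counts over the p53 KO libraries and 10 over the p53 WT libraries, 8 of them in replicate 2. Without p53 WT replicate 2 the fitted log2 fold change of IL34 was 6.55, against 5.08 with it. CSF1, the macrophage growth factor, was the one that fell, with 14.9 ± 1.85 CPM in p53 KO and 28.7 ± 3.14 CPM in p53 WT (SD, n = 3 each; log2 fold change -0.96).

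NFKBIA, the pathway readout, did not pass the threshold. It had 41.5, 42.8 and 48.5 CPM in p53 KO replicates 1, 2 and 3, against 40.2, 35.8 and 35.9 CPM in p53 WT replicates 1, 2 and 3. The groups did not overlap, but p53 KO replicate 1 and p53 WT replicate 1 were close. The log2 fold change was 0.24 (SE 0.12, adjusted p = 0.145 by edgeR), with a 95% interval of -0.004 to 0.49. NFKBIA lies on chromosome 14, where the median of its 50 nearest tested genes was -0.34, and relative to them it was higher by 0.58 (adjusted p = 0.00261 by edgeR). Relative to neighbours 4 of the 7 members were higher and 1 was lower, where 9.19% of all genes tested were higher and 10.6% lower. The neighbour medians of the other 5 members tested were between 0.05 and 0.24.

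**Figure D4:**
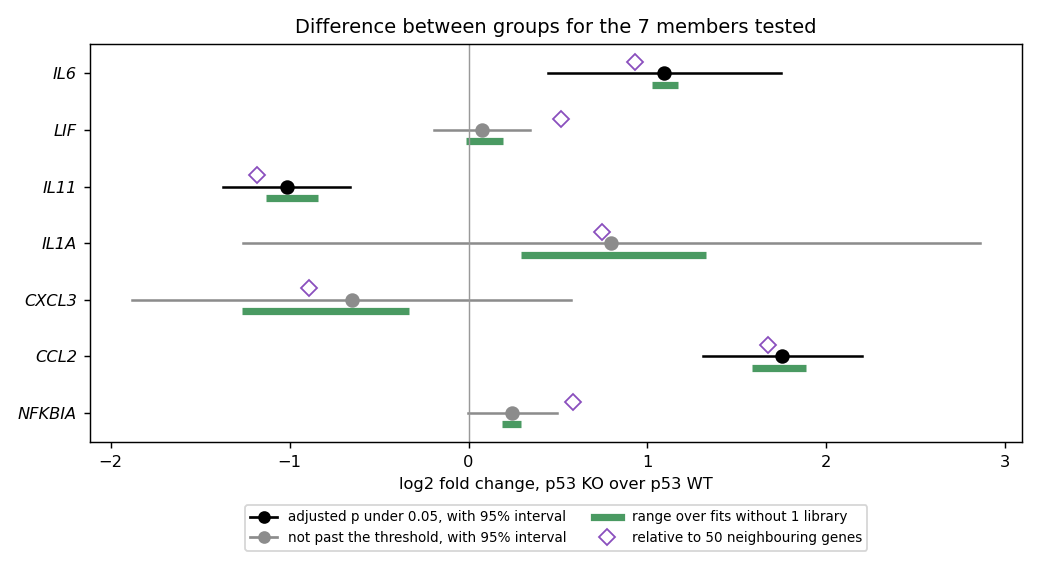
Log2 fold change, p53 KO over p53 WT, of the 7 members tested, with its 95% interval (black where the adjusted p is under 0.05, grey otherwise). Green bars give the range over the 6 fits that left out 1 library, and open diamonds the value relative to the 50 nearest tested genes. IL6 and CCL2 lie above 0 and IL11 below it in all of these, while LIF and NFKBIA move up relative to their neighbours, to 0.52 and 0.58.

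Of 17 other NF-kB subunits, inhibitors, dampeners and IKK components 8 were higher and 1 was lower, beside 12.1% and 14.4% of all genes tested. The median log2 fold change of these 17 was 0.44, beside 0.0052 over all genes tested. NFKB2, the precursor of the p52 subunit, averaged 143 ± 14.6 CPM in p53 KO and 64.3 ± 2.24 CPM in p53 WT (SD, n = 3 each), and its log2 fold change was 1.16 (SE 0.10, adjusted p = 2.52e-06 by edgeR). RELB, its partner in the noncanonical pathway, averaged 56.7 ± 9.38 CPM in p53 KO and 22.8 ± 1.63 CPM in p53 WT (SD, n = 3 each), a log2 fold change of 1.31. NFKB1, the precursor of the p50 subunit, had 0.54, while RELA, the main activating subunit, named for its role, had -0.28 and did not pass (adjusted p = 0.076 by edgeR).

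Among the inhibitors and nuclear IkB proteins some rose, while TNFAIP3, TNIP1 and TNIP2, dampeners named for their role, had 0.04, 0.21 and -0.10 and did not pass (adjusted p = 0.92, 0.13 and 0.642 by edgeR). NFKBIE (IkB-epsilon) had a log2 fold change of 1.00, NFKBID, a nuclear IkB protein, had 1.59, and BCL3, another nuclear IkB protein, had 1.29. CYLD, a deubiquitinase that dampens the pathway, averaged 65.9 ± 7.93 CPM in p53 KO and 28.3 ± 1.14 CPM in p53 WT (SD, n = 3 each; log2 fold change 1.22, and 0.75 relative to neighbours). NFKBIB (IkB-beta) had 0.48 and NFKBIZ, a nuclear IkB protein that promotes IL6 transcription, was the one that fell, at -0.73. NFKBIB lost its call without p53 WT replicate 2 or 3 (adjusted p = 0.103 and 0.123 by edgeR). NFKBIZ lost it without p53 KO replicate 3 or p53 WT replicate 1 (adjusted p = 0.0526 and 0.107 by edgeR). Both lost it relative to neighbours, so that 7 were then higher and 0 lower.

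Upstream of NF-kB, 7 of 22 genes were higher and 3 were lower, beside 12.1% and 14.4% of all genes tested. Their median log2 fold change was 0.02. TLR4, the lipopolysaccharide receptor, MYD88, the adaptor of toll-like and interleukin-1 receptors, and TMEM173 (STING), the adaptor for cytosolic DNA, had log2 fold changes of 1.25, 1.27 and 1.86. TNFRSF1A, the main TNF receptor, averaged 128 ± 14.4 CPM in p53 KO and 206 ± 18.8 CPM in p53 WT (SD, n = 3 each; log2 fold change -0.68). IRAK1 and TBK1, kinases named after their values were seen, had -0.36 and -0.51, and TBK1 lost its call without p53 WT replicate 2 (adjusted p = 0.0911 by edgeR). TRADD, an adaptor of TNFRSF1A named after its values were seen, had 0.68, but -0.02 relative to its neighbours (adjusted p = 0.967 by edgeR). ATM, the kinase that links DNA breaks to the pathway, named for its role, had 0.17 and did not pass (adjusted p = 0.626 by edgeR).

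Among 17 tested NF-kB targets that are not members, 7 were higher and 4 were lower, beside 12.1% and 14.4% of all genes tested. The median log2 fold change of these targets was 0.47. TRAF1, a signalling adaptor, averaged 83.2 ± 21.8 CPM in p53 KO and 18.9 ± 6.28 CPM in p53 WT (SD, n = 3 each), a log2 fold change of 2.15. BIRC3, an inhibitor of apoptosis, had 1.54, and C3, the central complement protein, had 3.27. PLAU, the urokinase protease, averaged 16.9 ± 2.01 CPM in p53 KO and 67.5 ± 6.74 CPM in p53 WT (SD, n = 3 each), so that p53 WT was 4.005-fold higher than p53 KO (adjusted p = 1.31e-07 by edgeR). Of the 11 calls 7 held in every fit without 1 library, 4 higher and 3 lower.

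Of 12 regulators of cytokine mRNA and promoters 4 were higher and 2 were lower, beside 12.1% and 14.4% of all genes tested. Relative to neighbours 2 were higher and 1 was lower, beside 9.19% and 10.6% of all genes tested. HNRNPD and ZFP36L2, named after their values were seen, had log2 fold changes of 0.375 and 0.372. Both lost their call in at least 1 fit without 1 library. ZC3H12A (regnase-1), which degrades IL6 mRNA, had a log2 fold change of -1.03, or -0.53 relative to neighbours (adjusted p = 0.0572 by edgeR). ZFP36L1, which destabilises mRNAs with AU-rich elements, had -0.44, but 0.10 relative to neighbours (adjusted p = 0.559 by edgeR). ELAVL1 (HuR), which stabilises such mRNAs, had 0.40, and ZC3H12C had 0.83, or 0.27 relative to neighbours (adjusted p = 0.426 by edgeR).

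**Figure D5:**
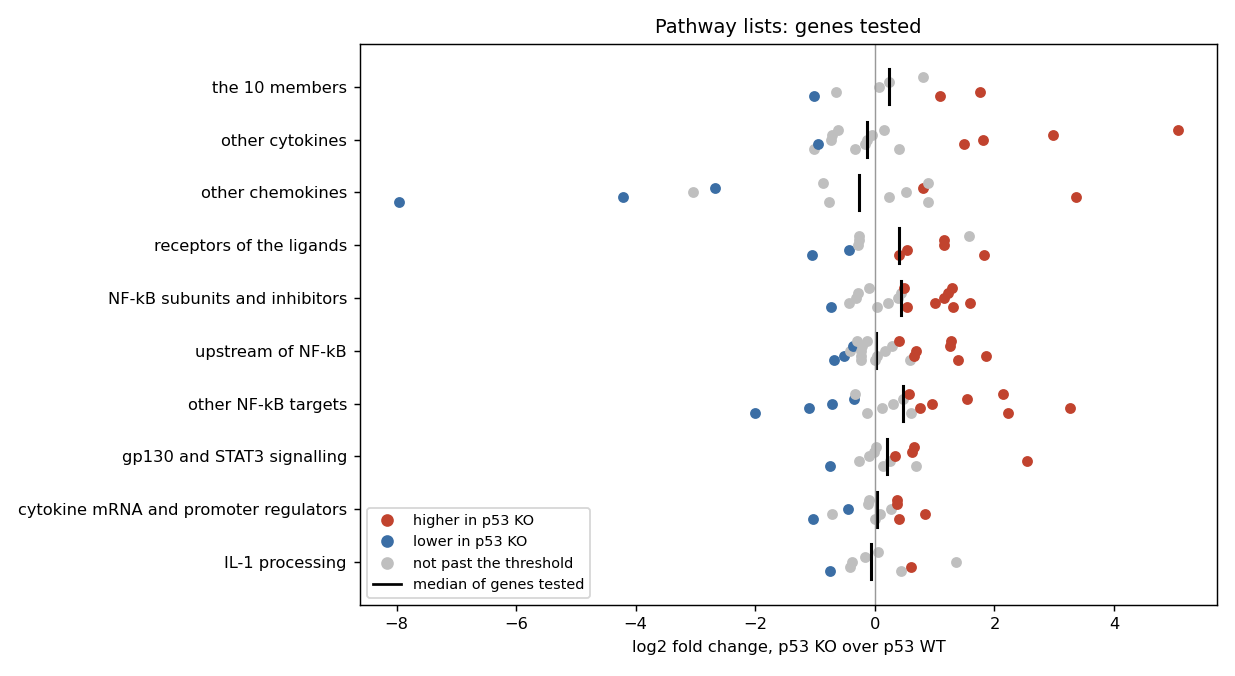
Log2 fold change, p53 KO over p53 WT, of each gene tested in the members and the 9 pathway lists, red where it was called higher, blue where it was called lower and grey otherwise, with the median of each list as a black line. The lists hold genes in both directions, and the NF-kB subunits and inhibitors have 8 higher and 1 lower. Fitted values of genes with 0 counts in a group, such as CCL4 at the far left, depend on the prior count and are no measure of size.

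Levels of different members can be compared only per length, here as CPM per kilobase of exons in GENCODE 29. The length joins the exons of all annotated transcripts of a gene. For CCL2 (1986 bases) and CXCL3 (2219 bases) it equals the whole gene span, so any intron counts as length. A shorter spliced transcript would raise their values, so the place of CCL2 in the order depends on this length. In p53 KO the order was NFKBIA (18.7 ± 1.57), LIF (16.4 ± 2.52), CCL2 (11.1 ± 2.24), IL11 (7.35 ± 1.24) and IL6 (1.60 ± 0.0434; SD, n = 3 each). In p53 WT it was NFKBIA (15.7 ± 1.07), LIF (15.6 ± 1.33), IL11 (14.8 ± 3.10), CCL2 (3.25 ± 0.753) and IL6 (0.749 ± 0.0744; SD, n = 3 each). On these lengths CCL2 stood above IL11 in p53 KO and below it in p53 WT. NFKBIA and LIF differed by less than the larger of their SDs in both genotypes, as did LIF and IL11 in p53 WT. With the same lengths CXCL3, IL1A, IL1B, CXCL1 and CXCL2 were under 0.6 in both.

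Markers of other cell types that make these cytokines were looked at beside these results. Of 12 leukocyte markers 7 were tested, 3 were higher (ITGB2, CORO1A and CD74) and 1, CD68, was lower. Their summed level was 24.4 to 29.7 CPM in p53 KO libraries and 19.9 to 22.4 CPM in p53 WT libraries. LYZ had 0 counts in every library, CD3E had 1 count in all, and PTPRC averaged 1.09 ± 0.0117 CPM in p53 KO and 1.71 ± 0.472 CPM in p53 WT (SD, n = 3 each). Of the endothelial markers 4 were tested and ERG was higher, and the summed level was 13.8 to 19.5 CPM in p53 KO and 10.8 to 12.6 CPM in p53 WT. Of 6 epithelial markers 1, KRT8, was higher, and the summed level was 577 to 701 CPM in p53 KO and 489 to 549 CPM in p53 WT. Over all genes tested 12.1% were higher and 14.4% lower, and the part of these markers in the members' differences was not tested.

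The authors' deposited table, whose log2 fold changes run as p53 WT over p53 KO, gives -1.78 for CCL2, -1.12 for IL6 (adjusted p = 0.044 in the authors' deposited table) and 0.99 for IL11. The authors' deposited table gives -0.10 for LIF and -0.27 for NFKBIA, with adjusted p = 0.796 and 0.266. It lists 9 of the members and marks 0 of them as intersecting a p53 cistrome, a mark carried by 124 of the 35987 rows of the authors' deposited table.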

How the data were processed

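The submitters' processing notes name GRCh37 (hg19), HISAT2 2.1.0, fastp 0.21.0 and DESeq2 1.3.6. The authors deposited raw counts per gene symbol for 6 libraries, used as deposited. Their counting tool, annotation and use of strand were not given in sources used here. The authors' deposited comparison table, per the file headers, holds per gene a log2 fold change and SE, a test score, p-values and the mean normalised signal. In all 35987 rows the fold change has the opposite sign to the score, and CDKN1A is positive, so its direction was taken as p53 WT over p53 KO.

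The test of counts was that of edgeR 4.0.16 (R 4.3.3; quasi-likelihood F-test, robust, TMM factors 0.979 to 1.02, filterByExpr, Benjamini-Hochberg over 22352 genes, adjusted p under 0.05), with no replicate block. The SE is the size of the fold change over the square root of F. The script was tested on simulated data. Replicates of a group differed beyond sampling noise (lowest chi-square per degree of freedom 16.7). The members and lists were chosen with earlier results of these data known, and no set test was run. Symbols matched for 197 of 202 list genes, RefSeq synonyms for 4 more, and 1 stayed unmatched. Named genes were the members, CDKN1A and MDM2, the 4 smallest adjusted p of each list, every called NF-kB subunit or inhibitor, and the genes most like LIF. A few genes chosen this way are not reported here. Values relative to neighbours took the median of the 50 nearest tested protein-coding genes in RefSeq order (GRCh38.p14), members left out, as an offset. The offset was taken as fixed, so its own error is not in those p-values. The alternatives also included leaving out each library, blocking on replicate number, a threshold of 0.01, DESeq2 1.42.0, limma-voom (limma 3.58.1), RLE or upper-quartile factors or none, no filter, and a filter of 1 CPM in 3 libraries.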

Additional observations from a re-analysis of the deposited data

How the results depend on the processing

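CCL2 and IL11 kept direction and call in all 17 settings, with log2 fold changes of 1.58 to 1.89 and -1.18 to -0.84. IL6 was between 0.93 and 1.17 and was called in 15 of 17. At adjusted p under 0.01, 1 member was higher, with 1659 genes higher and 2099 lower over all genes. Relative to neighbouring genes 4 members were higher, LIF and NFKBIA being added, where 9.19% of all genes tested were higher (2055) and 10.6% lower (2372). Without 1 library in turn, 1 to 2 members were higher and 1 was lower, with 1872 to 2857 genes higher and 2288 to 3202 lower. ZFP36L1 turned to 0.099 and TRADD to -0.018 relative to neighbours, both without a call. Of 75 genes checked, 63 stayed called or not called relative to neighbours, 7 lost their call, 3 gained one and 2 changed sign. The genes checked were the named genes and the list genes already called, so losses cannot be weighed against gains. List genes outside that set also passed relative to neighbours. Among them were TRAF2 and CASP4, named after their values were seen, with 0.87 and -0.59 (adjusted p = 0.000102 and 0.00307 by edgeR). With the replicate number as a block 2 members were higher and 1 lower, with 2297 and 2862 of all genes. Replicates with the same number were not shown to be paired: the correlations of their deviations across genes were -0.02, 0.104 and -0.177, and of the 6 samples 1, p53 WT replicate 2, correlated best with its own number. The block ended 3 of the calls checked, those of PIAS3, HNRNPD and IL6ST, named after their values were seen. Depth limits IL1A, IL1B, CXCL1, CXCL2 and CXCL3, which had at most 106 counts in any library.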
